A study of Mus musculus with 2 samples.

Results

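The inward-rectifier, two-pore and calcium-activated potassium channel genes were described in total RNA from the left cerebral cortex of male mice. The members were all protein-coding genes with a symbol of the Kcnj, Kcnk, Kcnn, Kcnt or Kcnu series or of the Kcnma and Kcnmb series followed by a number. By this rule there were 41 genes among 55536 annotated genes, of which 22028 were protein-coding. The rule uses names and biotypes, not measured values. The mice were B6CASTF1/J, offspring of a C57BL/6J by CAST/EiJ mating, 25 days of age and without a treatment named in the labels. There was 1 group of 2 biological replicates, called replicate 1 and replicate 2, with 300 ng of RNA each. The labels give both replicates 1 shared donor entry, so it is only assumed that 2 different mice were sampled, and the spread may be technical. Library size was 30503944 expected counts (replicate 1) and 33263801 (replicate 2), of which 56863 and 59614 fell on the channel genes. With 1 group there was no contrast between conditions and no test, and every statement that a gene was higher in replicate 1 or replicate 2 compares these libraries only.

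Potassium channels let potassium leave or enter a cell down its electrochemical gradient and so set the resting potential and shape firing. Inward rectifiers (Kcnj, Kir) pass current best near and below the resting potential, because polyamines and magnesium block outward flow. Two-pore channels (Kcnk, K2P) carry a pair of pore loops in each subunit and give background leak. The Kcnma, Kcnn, Kcnt and Kcnu channels open with intracellular calcium, intracellular sodium or, for Kcnu1, alkaline pH. In cortex these families are known for the slow inhibition that G proteins bring about in neurons, for potassium uptake by astrocytes and for the afterhyperpolarization that follows spikes.

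The feature these channels share is the selectivity filter, a short stretch of the pore loop whose usual core is glycine, tyrosine, glycine. To show how it is spelled in the cortical members, 45 coding bases around the filter are given 5′ to 3′ on the coding strand for channels that led their subfamily or departed from the usual core, with the 3 filter codons in capitals. The bases come from the GENCODE M21 transcripts on mm10, the annotation the deposited values use. Kcnj4 lies at chr15:79485349-79485393 on the minus strand, Kcnj9 at chr1:172326166-172326210 on the minus strand, Kcnj11 at chr7:46099478-46099522 on the minus strand, Kcnma1 at chr14:23528395-23528439 on the minus strand and Kcnt1 at chr2:25894355-25894399 on the plus strand.
Kcnj4: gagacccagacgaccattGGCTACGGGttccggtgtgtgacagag
Kcnj9: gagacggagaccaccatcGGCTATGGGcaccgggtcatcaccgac
Kcnj11: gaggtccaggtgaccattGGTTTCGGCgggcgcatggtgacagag
Kcnma1: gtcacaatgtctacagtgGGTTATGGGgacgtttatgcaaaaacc
Kcnt1: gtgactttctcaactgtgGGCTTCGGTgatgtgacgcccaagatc
The middle codon was TAT or TAC, for tyrosine, in 13 of 15 Kcnj genes and TTT or TTC, for phenylalanine, in the other 2, Kcnj8 and Kcnj11, which form the ATP-sensitive channels. Of 8 pore genes of the Kcnma, Kcnn, Kcnt and Kcnu series, 5 had TAT and 3 had a phenylalanine codon, namely Kcnt1, Kcnt2 and Kcnu1. The Kcnmb genes encode auxiliary subunits with no pore, and no signature was found in their leading transcripts.

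The two-pore genes are shown by both of their loops, because the loops differ from each other. The first loop of each is joined across an intron in the transcript. The second loop of Kcnk1 lies at chr8:126025317-126025361 on the plus strand and that of Kcnk9 at chr15:72512701-72512745 on the minus strand; Kcnk2 lies on the minus strand of chromosome 1, and its second stretch also crosses an intron.
Kcnk1, pore 1: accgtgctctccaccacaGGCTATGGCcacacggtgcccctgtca
Kcnk1, pore 2: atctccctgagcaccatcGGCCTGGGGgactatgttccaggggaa
Kcnk2, pore 1: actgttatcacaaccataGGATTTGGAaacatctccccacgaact
Kcnk2, pore 2: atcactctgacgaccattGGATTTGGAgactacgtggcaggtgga
Kcnk9, pore 1: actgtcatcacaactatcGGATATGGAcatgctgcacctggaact
Kcnk9, pore 2: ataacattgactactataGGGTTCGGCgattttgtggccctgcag
An intron cut through the 3 filter codons of pore 1 in 14 of 14 two-pore genes, and through those of pore 2 in 0 of 14. The Kcnj filter codons were uncut in 15 of 15 genes, and those of the Kcnma, Kcnn, Kcnt and Kcnu genes in 8 of 8. Pore 1 had a tyrosine codon in 11 two-pore genes and a phenylalanine codon in 3, Kcnk2, Kcnk12 and Kcnk13. Pore 2 had a phenylalanine codon in 11, and a leucine codon in the 3 TWIK genes Kcnk1, Kcnk6 and Kcnk7.

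Of the 41 channel genes, 28 (68.3%) were detected, meaning 1 TPM, a count per transcript length scaled to a fixed total, or more in both replicates, beside 58.2% of protein-coding genes. At 10 TPM or more in both stood 17 members, beside 36.0% of protein-coding genes. The median level of the channel genes was 8.74 TPM in replicate 1 and 8.57 TPM in replicate 2. Over all protein-coding genes the median of the mean level was 3.49 TPM, and over 40 voltage-gated alpha subunit genes, of which 34 were detected, it was 16.4 TPM. Together the members held 725.6 TPM in replicate 1 and 692.3 TPM in replicate 2. Markers of the labelled tissue were present: all 4 pan-neuronal genes were detected, Snap25 for example with 1168.1 TPM in replicate 1 and 1155.2 TPM in replicate 2, and so were all 3 genes of glutamatergic and all 3 of GABAergic neurons. Bulk tissue cannot tell fewer cells of a type from less RNA per cell, so all levels are those of the tissue. TPM are per transcript length, which matters for this family. Kcnk9 was second by counts, with 5227 in replicate 1 and 4961 in replicate 2, but 13th by TPM, since its 12300-base transcript has 1206 coding bases.

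**Figure D1:**
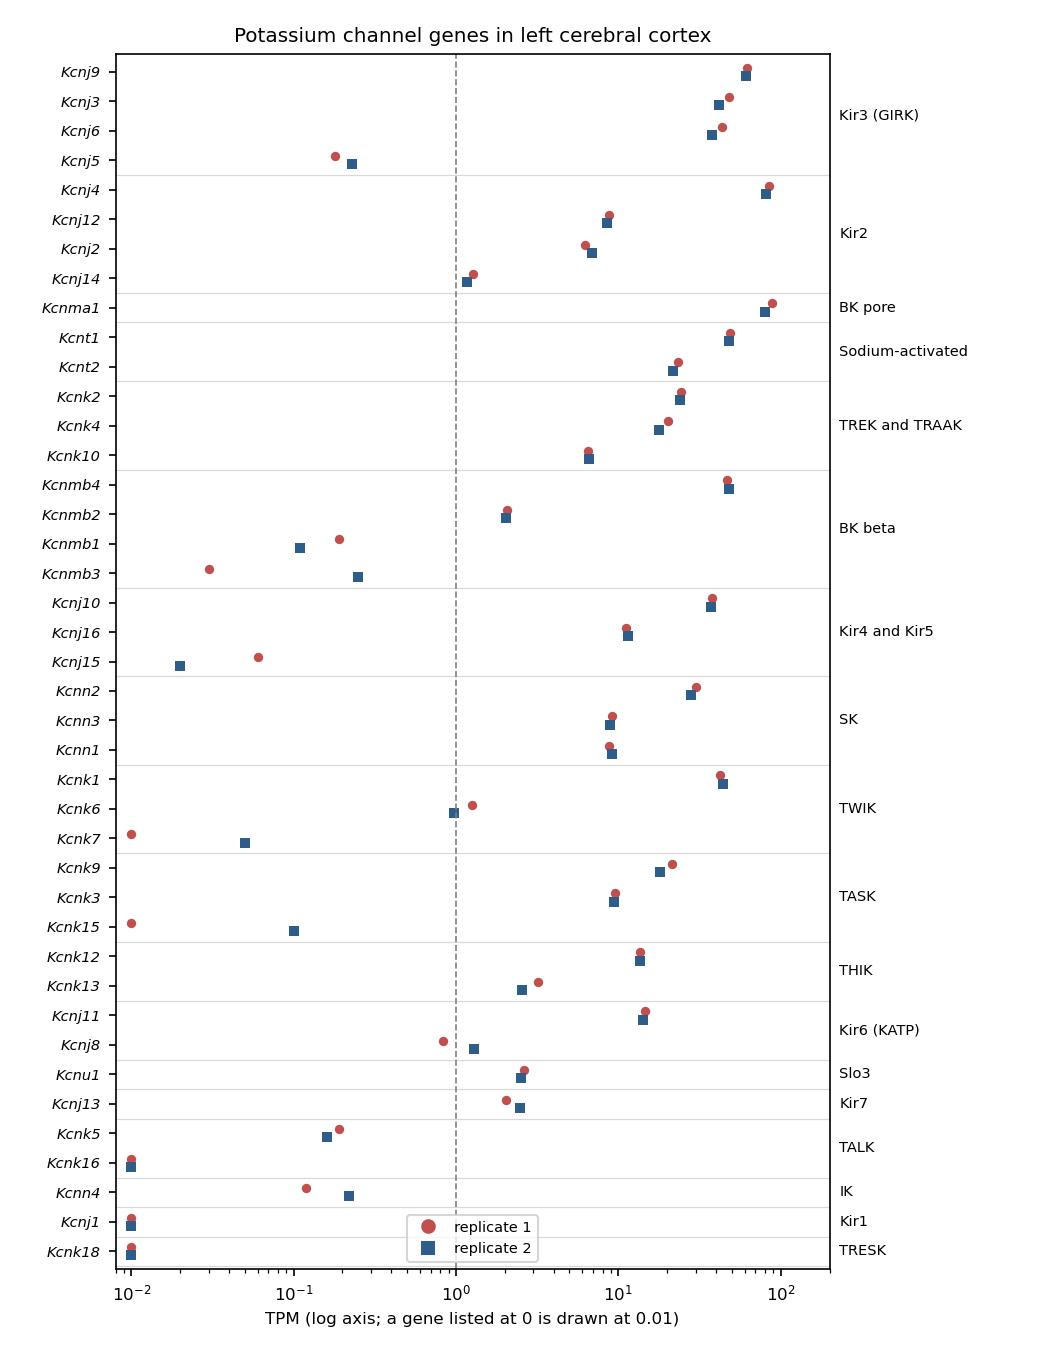
TPM on a log axis for the 41 channel genes, grouped by subfamily from the largest summed level to the smallest, with replicate 1 as circles and replicate 2 as squares. The dashed line marks the detection level of 1 TPM, and genes listed at 0 are drawn at 0.01. The markers of the replicates lie close together for every gene above 3 TPM, and Kcnma1, Kcnj4 and Kcnj9 stand farthest to the right.

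The inward rectifiers controlled by G proteins held more TPM than any other of the 18 subfamilies, 153.96 TPM in replicate 1 and 140.2 TPM in replicate 2. Kcnj9 (GIRK3, chr1:172320501-172329318) had 62.1 TPM in replicate 1 and 60.8 TPM in replicate 2, or 61.5 ± 0.898 TPM (SD, n = 2). Kcnj3 (GIRK1), the subunit that most neuronal heteromers contain, had 48.0 TPM in replicate 1 and 41.5 TPM in replicate 2. Kcnj6 (GIRK2) had 43.7 TPM in replicate 1 and 37.7 TPM in replicate 2. Kcnj9 was the highest of the 3 and Kcnj6 the lowest in both libraries. Kcnj5 (GIRK4), the partner of GIRK1 in the atrium of the heart, was all but missing, on 13 counts and 0.18 TPM in replicate 1 and on 22 counts and 0.23 TPM in replicate 2. Within a library Kcnj6 stood at 0.910 of Kcnj3 in replicate 1 and 0.908 in replicate 2, so that these ratios lay closer together than the levels did. Kcnj9 stood at 1.29 and 1.47 times Kcnj3 in replicate 1 and replicate 2.

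Both main Kcnj6 transcripts encode the whole channel up to its tail, where they part, and so their coding ends are printed with the bases after the split in capitals. They lie on the minus strand of chromosome 16; the stretch of Kcnj6-202 is at chr16:94762363-94762425, and that of Kcnj6-201 crosses an intron.
Kcnj6-201: aacccggaagaactgacggagaggaatggG
Kcnj6-202: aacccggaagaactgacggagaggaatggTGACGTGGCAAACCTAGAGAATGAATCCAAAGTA
The coding sequences were identical for their first 1241 bases, and after that Kcnj6-201 had 1 more base before its stop codon and Kcnj6-202 had 34. The short form has 414 codons and the long form 425; the long tail is known for a motif that binds the sorting nexin Snx27. Kcnj6-201 had 23.96 TPM in replicate 1 and 21.3 TPM in replicate 2, or 54.9% and 56.4% of the gene. Kcnj6-202 had 17.4 TPM in replicate 1 and 15.4 TPM in replicate 2, or 39.9% and 40.9%. A second deposited transcript table, made by another program, gave the long form 31.3% in replicate 1 and 37.2% in replicate 2, so both tables placed it below the short form. Snx27 itself had 44.1 TPM in replicate 1 and 42.9 TPM in replicate 2. All 13 listed regulators of these channels were detected, and none was over 1.5-fold apart. They included the GABA-B receptor subunits Gabbr1, whose level was 300.6 TPM in replicate 1 and 292.8 TPM in replicate 2, and Gabbr2, with 123.2 and 120.6 TPM. The G protein subunits Gnb1 and Gnao1, and the Rgs7 complex with Gnb5, Rgs7bp and Gpr158, were each above 50 TPM in replicate 1 and at 50.0 TPM or more in replicate 2.

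Among the strong inward rectifiers of the Kir2 group, 1 gene held most of the RNA. Kcnj4 (Kir2.3, chr15:79483714-79505241) had 85.3 TPM in replicate 1 and 81.8 TPM in replicate 2, or 83.6 ± 2.47 TPM (SD, n = 2). Its mean was second to that of Kcnma1 among all members, but within replicate 2 it stood above Kcnma1, at 80.1 TPM, so the order of these genes does not exceed the spread. Kcnj12 (Kir2.2) had 8.74 TPM in replicate 1 and 8.57 TPM in replicate 2. Kcnj2 (Kir2.1), the best known of the group from heart and skeletal muscle, had 6.25 TPM in replicate 1 and 6.85 TPM in replicate 2. Kcnj14 (Kir2.4) was just over the detection level, with 1.27 TPM in replicate 1 and 1.17 TPM in replicate 2. Kcnj4 was 13.7 times Kcnj2 in replicate 1 and 11.9 times in replicate 2. These channels and the G protein controlled ones need the lipid PIP2 to open, and the 4 listed enzymes of its synthesis were all detected, led by Pip5k1c with 195.0 TPM in replicate 1 and 183.6 TPM in replicate 2.

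Kcnj10 (Kir4.1, chr1:172341210-172374085), the channel by which astrocytes take up potassium, had 37.9 TPM in replicate 1 and 37.3 TPM in replicate 2, or 37.6 ± 0.446 TPM (SD, n = 2). Kcnj16 (Kir5.1), which forms heteromers with it, had 11.1 TPM in replicate 1 and 11.5 TPM in replicate 2, or 0.292 and 0.307 of Kcnj10. Kcnj15 (Kir4.2) was near 0, with 3 counts in replicate 1 and 2 in replicate 2. Aqp4, the water channel of astrocyte endfeet, stood close to Kcnj10 in level, with 41.4 TPM in replicate 1 and 41.7 TPM in replicate 2. All 6 astrocyte markers were detected, 4 of them higher and 2 lower in replicate 1. Gfap was among the lower, with 45.5 TPM in replicate 1 and 51.4 TPM in replicate 2. The median log2 difference of the astrocyte markers, replicate 1 over replicate 2, was 0.16, while that of Kcnj10 was 0.02. Oligodendrocytes, which also express Kcnj10, differed more: 5 of 5 of their markers were lower in replicate 1, Mbp for example with 348.5 TPM in replicate 1 and 462.9 TPM in replicate 2, and their median log2 difference was -0.43. Their part in the level of Kcnj10 was not tested.

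The ATP-sensitive channels couple metabolism to excitability and pair a Kir6 pore with a sulfonylurea receptor. Kcnj11 (Kir6.2) had 14.5 TPM in replicate 1 and 14.2 TPM in replicate 2, and its neuronal partner Abcc8 (SUR1) had 16.2 TPM in replicate 1 and 12.3 TPM in replicate 2. Their ratio was 0.896 in replicate 1 and 1.15 in replicate 2, on either side of equality. Kcnj8 (Kir6.1), the form of pericytes and vascular smooth muscle, had 41 counts and 0.83 TPM in replicate 1, against 65 counts and 1.29 TPM in replicate 2. Its receptor Abcc9 (SUR2) had 2.28 TPM in replicate 1 and 1.58 TPM in replicate 2, the opposite order. Kcnj11 was therefore 17.5 times Kcnj8 in replicate 1 and 10.98 times in replicate 2.

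Kcnj13 (Kir7.1), known from the choroid plexus and the retinal pigment epithelium, had 48 counts and 2.04 TPM in replicate 1, against 65 counts and 2.47 TPM in replicate 2. The choroid plexus markers differed far more: 5 of 5 were over 1.5-fold lower in replicate 1, and their summed level was 22.0 TPM in replicate 1 and 198.9 TPM in replicate 2, of which Ttr made 19.5 and 191.9 TPM. The log2 difference was -3.27 for Ttr and -0.23 for Kcnj13. Exons of Kcnj13 and of Gigyf2 on the opposite strand share 623 bases, and Gigyf2 had 43.3 TPM in replicate 1 and 46.9 TPM in replicate 2. The labels name a spike-in mix for stranded libraries but do not give the strand setting of the counting, so reads of these genes may not be told apart. The part of either in the level of Kcnj13 was not tested.

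**Figure D2:**
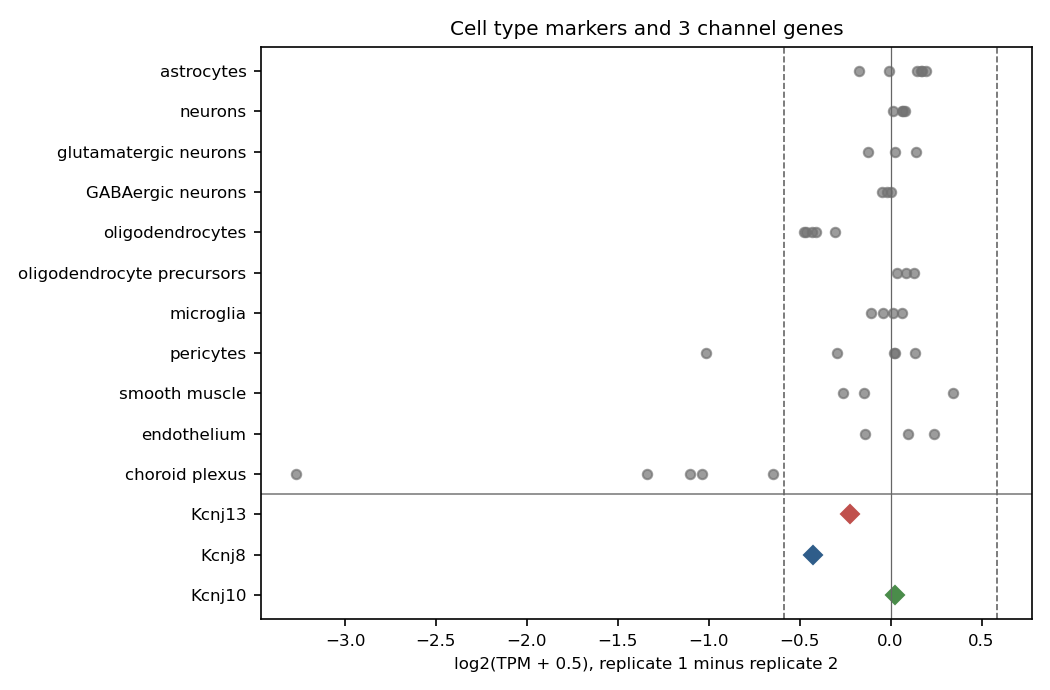
Difference between the replicates, as log2(TPM + 0.5) of replicate 1 minus replicate 2, for each cell type marker averaging 10 or more expected counts (grey, 1 row per list) and for 3 channel genes (diamonds). Dashed lines mark 1.5-fold. The choroid plexus markers lie between -3.27 and -0.65 and the oligodendrocyte markers between -0.48 and -0.31, while Kcnj13 lies at -0.23, Kcnj8 at -0.43 and Kcnj10 at 0.02.

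Among two-pore genes the mechanically and lipid gated TREK and TRAAK group held the most, 51.2 TPM in replicate 1 and 48.4 TPM in replicate 2. The TWIK group came next, with 43.35 TPM in replicate 1 and 45.37 TPM in replicate 2. Kcnk1 (TWIK-1), a weak leak channel, was the top single gene, with 42.1 TPM in replicate 1 and 44.4 TPM in replicate 2. Kcnk2 (TREK-1) had 24.3 TPM in replicate 1 and 23.97 TPM in replicate 2, and Kcnk4 (TRAAK) had 20.3 TPM in replicate 1 and 17.8 TPM in replicate 2. Kcnk10 (TREK-2) was lower than both, with 6.51 TPM in replicate 1 and 6.64 TPM in replicate 2. Kcnk4 shares 587 exon bases on the same strand with Catsperz, a sperm channel gene that had 15.9 TPM in replicate 1 and 13.6 TPM in replicate 2. Kcnk4 was the only member with gene counts that were not whole, 527.5 in replicate 1 and 541.8 in replicate 2. Its level is therefore uncertain, and so is the lead of the TREK and TRAAK group over the TWIK group.

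The acid-sensitive TASK genes were Kcnk9 (TASK-3), with 21.3 TPM in replicate 1 and 18.1 TPM in replicate 2, and Kcnk3 (TASK-1), with 9.49 TPM in replicate 1 and 9.43 TPM in replicate 2. Kcnk9 was 2.24 times Kcnk3 in replicate 1 and 1.92 times in replicate 2. Kcnk12 (THIK-2) had 13.7 TPM in replicate 1 and 13.6 TPM in replicate 2. Kcnk13 (THIK-1), the potassium channel of microglia, had 3.22 TPM in replicate 1 and 2.57 TPM in replicate 2, and the 4 microglial markers had a median log2 difference of -0.01. Kcnk6 (TWIK-2) was on either side of the detection level, with 1.25 TPM in replicate 1 and 0.97 TPM in replicate 2. Kcnk5 (TASK-2) had 0.19 TPM in replicate 1 and 0.16 TPM in replicate 2. The remaining two-pore genes had almost no reads: Kcnk15 (TASK-5) had 0 counts in replicate 1 and 4 in replicate 2, and Kcnk7 had 0 and 1.

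Calcium-activated channels were led by Kcnma1, the pore of the large-conductance (BK) channel that calcium and voltage open together. The gene spans chr14:23289431-24014491 and had 88.7 TPM in replicate 1 and 80.1 TPM in replicate 2, or 84.4 ± 6.07 TPM (SD, n = 2), the highest mean of all members and above 94.7% of protein-coding genes. Of its beta subunits, Kcnmb4, the neuronal form that slows BK gating, had 47.1 TPM in replicate 1 and 47.8 TPM in replicate 2. Kcnmb2, whose N terminus inactivates the channel, had 2.05 TPM in replicate 1 and 2.04 TPM in replicate 2. Kcnmb4 stood at 0.531 of Kcnma1 in replicate 1 and 0.596 in replicate 2. Kcnmb1, the smooth muscle form, had 16 counts in replicate 1 and 10 in replicate 2, and Kcnmb3 had 1 and 9. Of 4 listed gamma subunits, which shift BK opening to lower voltages, only Lrrc55 was detected, with 11.02 TPM in replicate 1 and 12.79 TPM in replicate 2.

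The small-conductance (SK) channels open through bound calmodulin and end bursts of spikes. Kcnn2 (SK2) had 30.2 TPM in replicate 1 and 28.2 TPM in replicate 2 and led the group in both. Kcnn3 (SK3) had 9.18 TPM in replicate 1 and 8.86 TPM in replicate 2. Kcnn1 (SK1) had 8.75 TPM in replicate 1 and 9.11 TPM in replicate 2, so that it was below Kcnn3 in the one and above it in the other. Kcnn4, the intermediate-conductance channel of red blood cells and T cells, had 6 counts in each. The 3 calmodulin genes were far more abundant, between 838.5 and 1069.8 TPM. The sodium-activated Kcnt1 (Slack) had 48.9 TPM in replicate 1 and 48.3 TPM in replicate 2, and Kcnt2 (Slick) had 23.4 TPM in replicate 1 and 21.7 TPM in replicate 2. Kcnt2 stood at 0.479 of Kcnt1 in replicate 1 and 0.450 in replicate 2.

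Kcnu1 (Slo3), the potassium channel of sperm, was listed with 65 counts and 2.62 TPM in replicate 1 and with 52 counts and 2.52 TPM in replicate 2. The first transcript table gave all of them to Kcnu1-202 and Kcnu1-203, short models that start 30276 and 30288 bases past the filter codons, and 0 to Kcnu1-201, which holds the filter. The second table gave Kcnu1-201 19.99 counts in replicate 1 and 22.5 in replicate 2, and its gene level was 4.00 TPM in replicate 1 and 2.49 TPM in replicate 2. In that table Kcnu1-201 held 10.1% of the gene in replicate 1 and 16.4% in replicate 2, and the gene was over 1.5-fold higher in replicate 1.

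In the gene table, 3 genes had 0 counts in both libraries. They were Kcnj1 (ROMK) of the kidney, Kcnk16 (TALK-1) of the pancreas and Kcnk18 (TRESK) of sensory neurons. A count of 0 allows up to 3 counts, which is 0.064 TPM in replicate 1 and 0.057 TPM in replicate 2 for Kcnj1, 0.105 and 0.094 TPM for Kcnk16, and 0.044 and 0.040 TPM for Kcnk18.

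**Figure D3:**
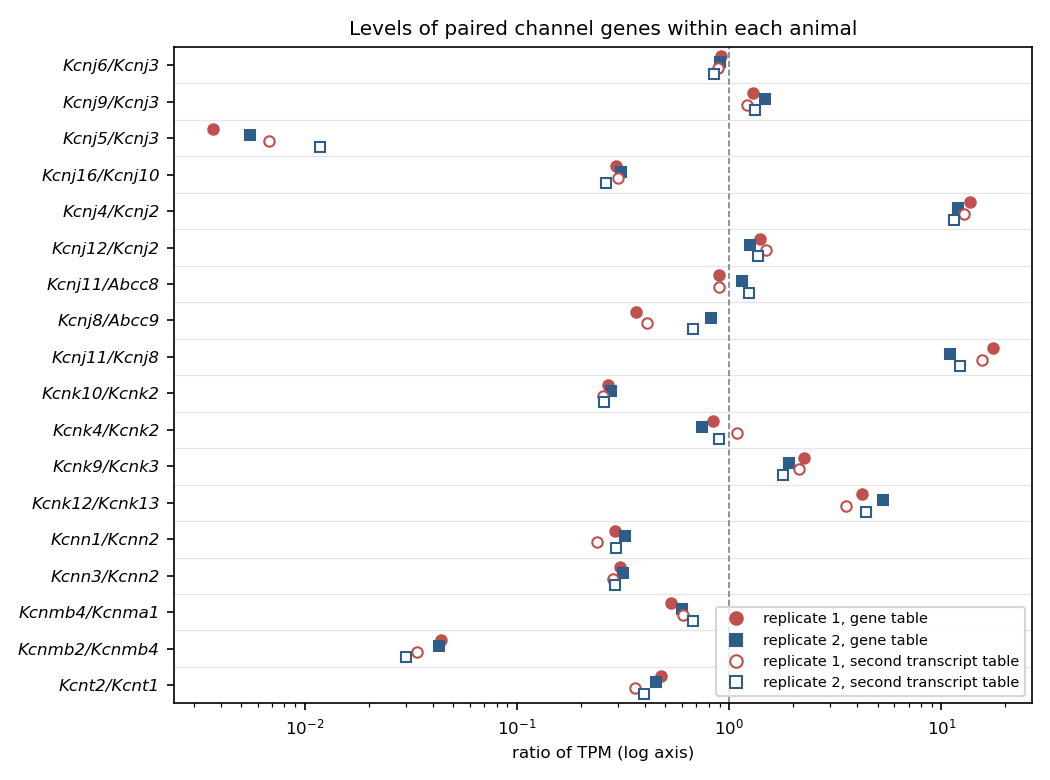
Ratio of TPM within a library, on a log axis, for 18 pairs of related or partner genes; circles are replicate 1, squares replicate 2, filled markers the gene table and open markers the second transcript table. The dashed line marks equality. Of the pairs, 6 lay above it in both libraries and the widest gap between filled markers was that of Kcnj8/Abcc9, at 0.364 in replicate 1 and 0.817 in replicate 2.

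Of the members, 33 averaged 10 or more expected counts. Of these, 0 were over 1.5-fold apart between the replicates on TPM + 0.5, beside 2.34% of 14537 protein-coding genes at that minimum. A total of 24 were higher in replicate 1 and 9 lower, beside 56.3% of those protein-coding genes higher. This split followed the scaling: it was 19 higher and 14 lower on counts scaled by TMM, beside 44.9% of the protein-coding genes higher, and 7 higher and 26 lower on counts scaled to the spike-in total, beside 13.9%. The median log2 difference, replicate 1 over replicate 2, was 0.03 over the channel genes and 0.02 over the protein-coding genes. On TPM + 0.5 the largest difference was that of Kcnj8, at -0.43. Without the added 0.5, TPM of replicate 1 over replicate 2 was 0.643 for Kcnj8 and 1.73 for Kcnmb1, both past 1.5-fold. Counting error alone gave Kcnj8 an interval from -1.14 to 0.05 (exact binomial, 95%, on counts scaled by TMM), which covers 0. Intervals of this kind lay above 0 for Kcnma1 (0.05 to 0.11), Kcnj3 (0.06 to 0.18), Kcnj6 (0.08 to 0.25), Kcnk9 (0.14 to 0.26) and Kcnj16 (0.01 to 0.30), and below 0 for Kcnj2 (-0.32 to -0.02). They cover no biological or library-making spread. The share of all protein-coding genes with such an interval off 0 is not given here, so these members cannot be set apart from other genes. Intervals of markers also lay off 0, for example above it for Slc1a2 (0.18 to 0.20) and below it for Gfap (-0.293 to -0.135). The interval of Aqp4 covered 0. With spike-in scaling, which moved the median of all genes to -0.155, the log2 difference was -0.07 for Kcnma1 and -0.03 for Kcnj3. Under that scaling Kcnj6 and Kcnk9 stayed above 0 and Kcnj2 stayed below 0. Kcnj16, whose interval lay above 0, had a TPM difference of the other sign, -0.05.

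**Figure D4:**
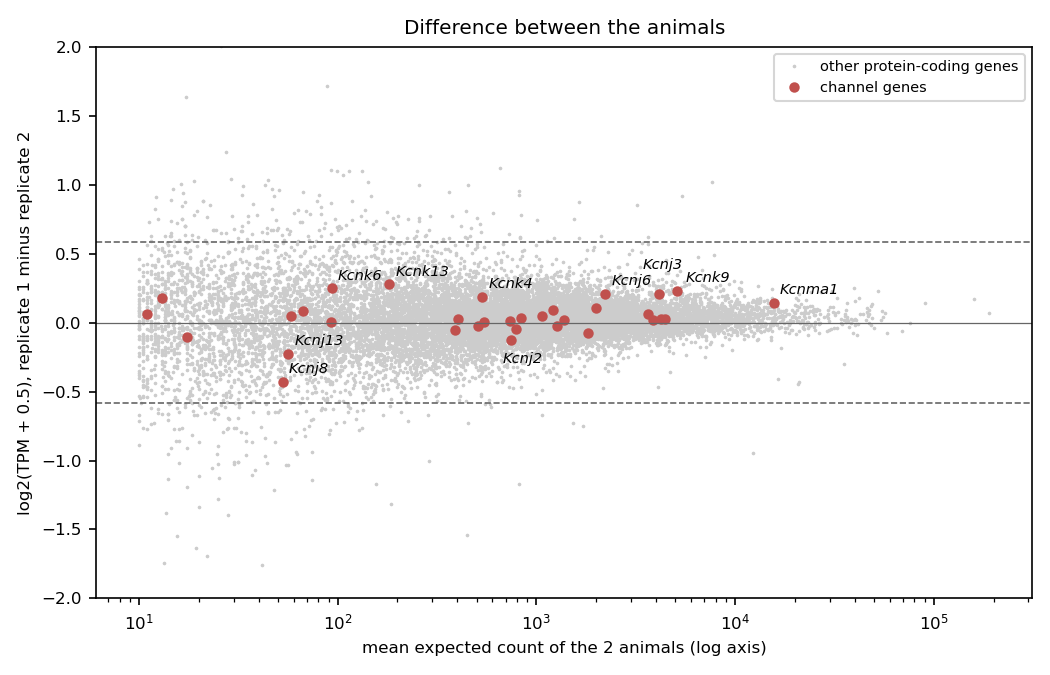
Difference between the replicates, as log2(TPM + 0.5) of replicate 1 minus replicate 2, against the mean expected count on a log axis, for 33 channel genes (red) and 14504 other protein-coding genes (grey), of which 7 lie beyond the vertical axis. Dashed lines mark 1.5-fold. All 33 channel genes lie between the dashed lines, with Kcnj8 lowest at -0.43 and Kcnk13 highest at 0.28.

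Most channel RNA was assigned to protein-coding transcripts, 89.6% of the TPM of the 28 detected members in replicate 1 and 89.2% in replicate 2, beside 85.2% and 85.9% over detected protein-coding genes. In the first transcript table a share under 60% in both libraries was found for 2 of 28 members, Kcnn3 and Kcnt1, beside 12.3% of protein-coding genes. In the second table Kcnk4 was under 60% as well. There 3 members (10.7%) were under 60% in each library, beside 18.4% of protein-coding genes in replicate 1 and 17.6% in replicate 2. Kcnn3-202, an 8314-base transcript annotated as retaining an intron, had 53.7% of Kcnn3 in replicate 1 and 48.2% in replicate 2, and the coding Kcnn3-201 had the rest. In the second table the same transcript had 52.4% in replicate 1 and 46.9% in replicate 2, so the tables put both libraries on the same sides of even shares.

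Kcnt1 had 58.3% of its TPM in retained-intron transcripts in replicate 1 and 57.0% in replicate 2, and 31.0% in transcripts that encode the filter in both. Kcnt1-206, of 6639 bases, led with 26.2% in replicate 1 and 25.0% in replicate 2. The second table gave the retained-intron class 59.7% and 58.1%, but its leading transcript was another, the 532-base Kcnt1-209, at 28.1% and 25.9%. The class was therefore stable between tables and the single transcript was not.

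Other members split their RNA between several transcripts, not all of them coding. Kcnk10-203, which holds the pore 1 codons and lacks those of pore 2, had 51.3% of Kcnk10 in replicate 1 and 49.2% in replicate 2, and 40.0% and 43.0% in the second table. There Kcnk10-202, which holds both, had 39.7% in replicate 1 and 46.0% in replicate 2. In Kcnk4, transcripts with both pores had 35.0% in replicate 1 and 36.0% in replicate 2, and 17.7% and 23.7% in the second table. Its coding transcripts without the filter codons of either pore had 34.5% in replicate 1 and 31.2% in replicate 2. In the second table these had 34.4% and 26.3%. Its transcripts annotated for nonsense-mediated decay had 9.6% in replicate 1 and 5.5% in replicate 2, and 22.5% and 14.6% in the second table. Its other non-coding transcripts had 20.9% in replicate 1 and 27.4% in replicate 2, and 25.3% and 35.4% in the second table. Kcnk2-203, annotated as a target of nonsense-mediated decay, had 23.5% of Kcnk2 in replicate 1 and 20.4% in replicate 2, and the transcripts that encode both pores had the bulk of the rest. Among those, the first table gave Kcnk2-202 28.5% in replicate 1 and 22.6% in replicate 2, and Kcnk2-201 17.5% and 24.6%, so their order turned between the replicates. The second table placed Kcnk2-206 highest in both, at 32.9% in replicate 1 and 35.4% in replicate 2. Kcnn2 was spread mainly over Kcnn2-203, with 34.6% in replicate 1 and 35.3% in replicate 2, and Kcnn2-208, with 30.4% and 24.8%. Retained-intron transcripts had 12.9% of Kcnn2 in replicate 1 and 14.5% in replicate 2, and other non-coding ones 5.9% and 8.0%. Kcnn1-204 led Kcnn1 with 58.4% in replicate 1 and 57.1% in replicate 2. Kcnn1-205, annotated for nonsense-mediated decay, had 6.2% in replicate 1 and 17.6% in replicate 2, and 8.8% and 30.9% in the second table. Its shares in the first table rested on few reads, 8.01 expected counts in replicate 1 and 26.7 in replicate 2. Kcnj16-201 had all of Kcnj16 in replicate 1 and 82.7% in replicate 2 in the first table, and 47.8% and 0.1% in the second. The rest of replicate 2 in the first table went to Kcnj16-203 and Kcnj16-204, on 12.61 and 4.91 counts. These are short models, of 527 and 424 bases, without the filter codons. In the second table the rest went to models close to Kcnj16-201 in length, with 99.7% for Kcnj16-206 in replicate 2.

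**Figure D5:**
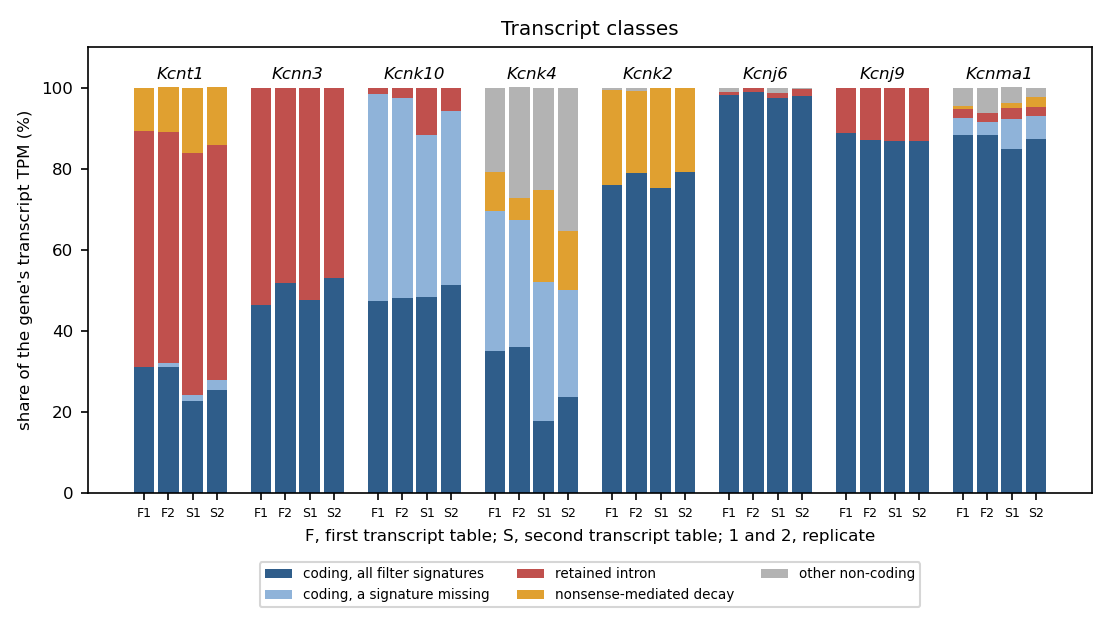
Share of each gene's transcript TPM, in percent, by transcript class for 8 channel genes; each gene has 4 bars, the first transcript table (F) for replicates 1 and 2 and then the second (S). Dark blue is coding with all filter signatures, and light blue is coding with at least 1 of them missing. Red is retained intron, yellow nonsense-mediated decay and grey other non-coding. Red takes between 57.0% and 59.7% of the Kcnt1 bars, and light blue takes 51.3% and 49.2% of Kcnk10 in the first table.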

How the data were processed

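Total RNA-seq libraries of 2 replicates were used, on mm10 and GENCODE M21 according to the deposited file list. The deposited gene table and first transcript table hold expected counts and TPM, under column names that RSEM writes per the file headers; a second deposited table per transcript has TPM and estimated counts, with the header of kallisto output. For the aligner and program versions, the sources used here give nothing. TPM were used as deposited, so abundant RNAs of any kind lower the TPM of all other genes. Rows that name no gene held 7 and 10 counts (2.3e-05% and 3e-05%). They and the spike-ins are part of the library sizes given above but were left out of the gene totals used for TMM and DESeq2 scaling. Spike-ins held 131702 counts in replicate 1 and 129524 in replicate 2.

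Detection was 1 TPM in both replicates. Differences divide replicate 1 by replicate 2 after adding 0.5 to TPM and are given as log2, which understates changes of low genes. Counts were rounded to integers before the TMM factors of edgeR and the size factors of DESeq2 were estimated, used for scaling only, as 1 group allows no test. Counting intervals are exact binomial at 95%; they and the limit of 3 counts cover only counting error, because without molecular identifiers several reads can stem from 1 molecule. The replicates' counts differed beyond sampling noise (chi-square over degrees of freedom 4.54), so they are not copies of 1 library. Filter codons were found by script in coding sequences. Only the log2 difference and its counting interval were tested on simulated data. The simulated counts held sampling noise alone, so they cannot show how the intervals perform at the wider spread of these libraries. The scaling used edgeR 4.0.16 and DESeq2 1.42.0 in R 4.3.3, and the rest pandas 2.3.3, numpy 2.4.6, scipy 1.17.1, Biopython 1.88 and matplotlib 3.10.9 in Python 3.11.15.

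The members, gene lists and pairs were chosen with earlier results of these data known. Every member is accounted for: those at 1 TPM in both replicates, over 1.5-fold apart or leading a subfamily have both values, and the others their counts or range. Transcripts are described for members with a mean count of at least 100 whose leading transcript is not coding, differs between tables or holds under 60%.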

Additional observations from a re-analysis of the deposited data

How the results depend on the processing

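The number of detected channel genes, 28, ranged from 29 to 30 under the other TPM, and was 30 at a detection level of 0.5 TPM, 23 at 5 TPM and 29 without either replicate. The median level, 8.66 TPM as the mean of both replicates, was 8.43 TPM with posterior means, 12.3 TPM in the second transcript table, 18.0 TPM after rescaling over protein-coding genes, 11.3 TPM for members with a mean count of at least 10, and 8.57 to 8.74 TPM without either replicate. The count of members over 1.5-fold apart, 0, was 2 with TMM or with DESeq2 size factors (Kcnj5 and Kcnmb1, on 10 to 22 counts without a pseudocount). It was 3 with spike-in scaling, which adds Kcnj8, and 1 in the second table (Kcnu1). It stayed 0 with pseudocounts of 0.1 and 1, without a count minimum and at 100 counts. The shares of all protein-coding genes under these settings, and at the other detection levels, are not given here. Spike-in scaling moved the median log2 difference of all genes to -0.155, and that of the channel genes was then -0.126, against 0.03 before; both lie below 0 by a similar amount. The other settings gave medians of 0.02 to 0.045. The coding share, 89.4%, was 86.3% in the second table and 89.2% to 89.6% without either replicate. The leading transcript was coding in 26 of 28 detected members, in 27 in the second table and in 26 to 27 without either replicate. It was the same transcript in both tables for 23 members. The matching shares over all detected protein-coding genes are not given here, so the members cannot be set apart from other genes. Of 18 pairs, 6 lay above a ratio of 1 in both replicates under all 3 kinds of TPM. No paired analysis was possible because there is 1 group, and differences between replicates have no value without either of them. The split of 24 members higher and 9 lower in replicate 1 was 19 and 14 with TMM or DESeq2 size factors, 7 and 26 with spike-in scaling and 23 and 10 in the second table. Depth limits the low members: the counting interval ran from -1.14 to 0.05 for Kcnj8 and from -0.88 to 0.25 for Kcnj13.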

Other observations

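Several members lie next to each other in the genome. Kcnj9 and Kcnj10 stand head to head on chromosome 1, with 11.9 kb between them and no coding gene in the gap. Kcnj9, a neuronal subunit, had 62.1 TPM in replicate 1 and 60.8 TPM in replicate 2, and Kcnj10, the astrocyte channel, had 37.9 and 37.3 TPM. Kcnj16 and Kcnj2 lie 38.2 kb apart on the same strand of chromosome 11, with 11.1 and 11.5 TPM for Kcnj16 and 6.25 and 6.85 TPM for Kcnj2. Kcnj6 and Kcnj15 lie 260 kb apart on chromosome 16 and differed widely in level, with 43.7 and 37.7 TPM for Kcnj6 against 0.06 and 0.02 TPM for Kcnj15. Kcnj5 and Kcnj1, 28.1 kb apart on chromosome 9, were both near or at 0.

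Some non-coding genes opposite a channel gene were also measured. Kcnmb4os2 shares 693 exon bases with Kcnmb4 on the other strand and had 11.4 TPM in replicate 1 and 9.40 TPM in replicate 2. Gm9899 shares 229 exon bases with Kcnk3 and had 6.77 TPM in replicate 1 and 6.20 TPM in replicate 2. The labels do not give the strand setting of the counting, so reads of these genes and of the channel genes opposite may not be told apart. In 7 of 14 Kcnj genes with a coding leading transcript, that transcript had its whole coding sequence in 1 exon; these were Kcnj2, Kcnj4, Kcnj10, Kcnj11, Kcnj12, Kcnj15 and Kcnj16.

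The transcript assignment of Kcnj8 differed between tables and replicates. The first table gave Kcnj8-201, a coding model without the filter codons, 0% in replicate 1 and 78.3% in replicate 2, and the second table gave it 0% and 4.6%. The gene had 41 counts in replicate 1 and 65 in replicate 2.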
